A study of Mus musculus with 16 samples.

Results

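Transcript levels of 37 genes were followed in mouse Th17 cells with and without the pyruvate dehydrogenase complex (PDH) and with and without added acetate. The genes encode acetyltransferases, deacetylases, sirtuins, corepressors and bromodomain proteins, and not all of these act on histones. The 37 were chosen by symbol and role among the 15571 genes of the deposited table. All 37 were found there, under 1 identifier each, and all 37 passed the filter on low counts. They fell into 10 acetyltransferases ("writers"), 10 zinc-dependent histone deacetylases (HDACs), 7 sirtuins, 5 corepressors that carry HDACs, and 5 bromodomain proteins that read acetyl-lysine. The data were bulk RNA-seq of 16 libraries in 4 groups of 4, named here KO acetate, WT acetate, KO untreated and WT untreated. All cells came from mice homozygous for floxed PDH alleles (PDHfl/fl), so the WT groups carried those alleles too. KO cells also carried CD4 Cre, a recombinase under the control of the Cd4 gene's elements, which acts from an early stage of T cell development. No group carried Cre without floxed alleles, and no group received sodium without acetate. Naive CD4+ T cells from spleen and lymph nodes were differentiated for 3 days with plate-bound anti-CD3 (5 µg/mL), anti-CD28 (1 µg/mL), IL-6 (30 ng/mL), TGFβ (2 ng/mL) and anti-IFNγ (5 µg/mL), with sodium acetate at 10 mM in the acetate groups only. Neither the mice's ages nor whether each library had its own animal or culture is given in the labels, and the spread behind every p-value may therefore be technical. The sample titles write PHD where the protocols and the series' own text write PDH.

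Histone acetyltransferases move the acetyl group of acetyl-CoA onto lysines of histones and other proteins, HDACs and sirtuins take it off, and bromodomain proteins bind the acetylated lysine. PDH makes acetyl-CoA from pyruvate in mitochondria. Added acetate can be turned into acetyl-CoA by the synthetases Acss1 (mitochondrial) and Acss2 (nuclear and cytosolic), and citrate from mitochondria can be turned into it by Acly. HDACs hydrolyse the acetyl group with a zinc ion, whereas sirtuins use NAD. In T helper cells these enzymes are known to act on loci that define each fate and also on proteins such as the Th17 regulator RORγt, a known substrate of p300 and Sirt1. The values below are transcript levels and hold no measure of enzyme activity or of histone acetylation.

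Library totals ran between 24571177 and 33723470 estimated counts, at which the members ranged over 0.184 to 529 CPM (counts scaled to library size, here with TMM factors). Only Hdac11, with a mean of 0.773 CPM over all libraries, lay below 5 CPM on average. One identifier without a gene name took over 3% of the counts in KO acetate 2 (8.0%), KO untreated 1 (9.14%), KO untreated 2 (3.27%) and WT untreated 1 (5.89%), and counts without these 4 libraries are given where they differ. All 9 CD4 T and Th17 markers checked were expressed, with summed levels of 2340 to 3560 CPM in KO acetate, 2060 to 2880 in WT acetate, 1360 to 1600 in KO untreated and 1610 to 2020 in WT untreated libraries. The 2 CD8 markers (Cd8a and Cd8b1) summed to 13.7 to 18.2 CPM in KO acetate, 13.1 to 17.2 in WT acetate, 5.13 to 8.35 in KO untreated and 9.08 to 11.2 in WT untreated libraries, so they moved with the groups. The CD4 T and Th17 markers did not move together. In KO untreated libraries Il23r averaged 7.82 CPM, against 27.3 in WT untreated libraries, and Trac 196 against 283. Ccr6 averaged 56.3 CPM there, against 36.5. Il17a, at 137 against 135 CPM there, averaged 868 CPM in KO acetate libraries. The part of either marker set in the results below was not tested. Markers of B cells (3 of 3 tested), myeloid cells (2 of 4) and NK cells (1 of 3) summed to at most 3.58 CPM in any library. Pdha1, the E1 alpha gene of PDH, averaged 248 ± 13.0, 259 ± 10.8 and 225 ± 11.5 CPM in KO acetate, WT acetate and KO untreated libraries, against 247 ± 12.6 CPM in WT untreated libraries (SD, n = 4 each), and was called in no comparison. The labels do not state the deleted part of the locus, so this level checks neither the genotype nor the labels. In bulk RNA, fewer cells of a type and less RNA per cell cannot be told apart.

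A call here means an adjusted p below 0.05 in edgeR's quasi-likelihood test with Benjamini-Hochberg adjustment over 14985 genes, and the adjusted p-values below are from this test unless another tool is named. Means are given ± SD over the 4 libraries of a group. Of the 37 members, 30 were called in at least 1 of 6 comparisons. The other 7, called in none, were Kat6a, Hdac8, Hdac10, Sirt4, Sirt6, Brd3 and Brd7. The comparisons share libraries (KO untreated enters the first 2 with opposite roles), so each gene's values are given side by side and no overlap between comparisons is read.

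**Figure D1:**
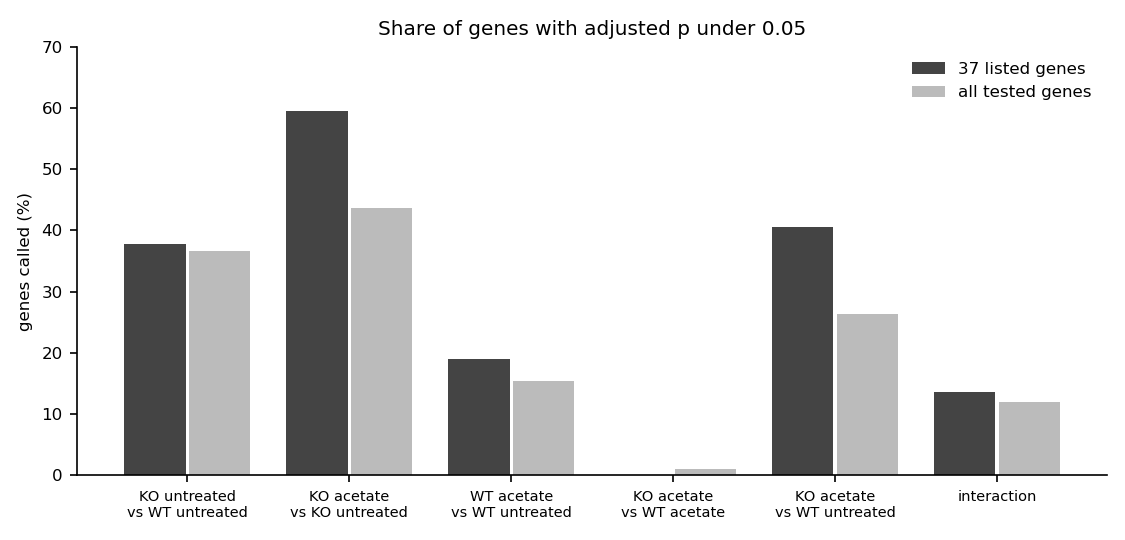
The bars give the percentage of genes called (adjusted p under 0.05) in each of 6 comparisons, for the 37 listed genes (dark) and for all 14985 tested genes (light). The listed genes stand at 59.5% against 43.7% in KO acetate vs KO untreated and at 0 against 1.00% in KO acetate vs WT acetate.

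Without acetate, KO cells had more Sirt1 and Brd2 transcript than WT cells and less Sirt2, Rcor1 and Hat1. The largest called changes were close to 1.5-fold: Sirt1 was 1.54-fold higher, Brd2 1.5-fold higher and Rcor1 1.51-fold lower. Of the 37 members, 14 were called (37.8%), 4 higher and 10 lower, beside 36.6% of all genes (18.0% higher and 18.6% lower), so the share called was near the background. By class, 1 writer was higher and 2 were lower, 2 HDACs were lower, 1 sirtuin was higher and 3 were lower, 3 corepressors were lower, and 2 bromodomain proteins were higher. The members' median log2 difference was -0.04, against 0.01 over all genes, and their median absolute difference was 0.14, against 0.26. Scaled to library totals alone, without TMM, 3 members were higher and 12 lower, while the split of all genes moved to 1914 higher and 3217 lower, against 2699 and 2782 with TMM. Without the 4 libraries named above, 11 members were called (4 higher, 7 lower), since Kat6b, Hdac1 and Rcor3 missed the threshold, and without single libraries 10 to 15.

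With acetate in KO cells, Sirt1 and Brd2 fell, and Sirt2, Sirt3, Sirt5, Rcor1 and the low-level Hdac11 rose, relative to KO cells without it. Sirt1 was 1.96-fold lower and Brd2 1.60-fold lower, while Sirt5 was 1.53-fold and Sirt3 1.5-fold higher. In this comparison 22 of the 37 members were called (59.5%), 9 higher and 13 lower, beside 43.7% of all genes (22.1% higher and 21.6% lower). By class, 1 writer rose and 6 fell, 3 HDACs rose and 3 fell, 3 sirtuins rose and 1 fell, 2 corepressors rose and 1 fell, and 2 bromodomain proteins fell. This majority of lower calls turned round without TMM scaling, with 12 members higher and 5 lower (HDACs 4 and 0, corepressors 3 and 0, writers 1 and 3), as the split of all genes moved to 4229 higher and 2085 lower, against 3314 and 3236. That change of scaling moved the median over all genes to 0.09, against -0.01 with TMM, on the log2 scale. Without the 4 libraries named above 21 members were called, 8 higher and 13 lower. Hdac8 (log2 0.3, adjusted p = 0.0414) and Ep300 (log2 -0.28, adjusted p = 0.0384) were then called, and Kat2b, Hat1 and Hdac1 were not. A fit of only these 2 groups lost the calls of Kat8, Hat1, Hdac2, Sin3b and Rcor3 (adjusted p = 0.0547 to 0.0967). The members' median was -0.10, and their median absolute difference was 0.25, against 0.29 over all genes. The 2 CD8 markers were higher in every KO acetate library than in any KO untreated library, as given above, and their part in these calls was not tested.

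In WT cells acetate went with lower Sirt1, Kat2b, Hdac4, Kat2a, Ncor1 and Brd1 and with higher Sirt3. These 7 of 37 members were called (18.9%), 1 higher and 6 lower, beside 15.4% of all genes (7.89% higher and 7.55% lower). None of the 7 was past 1.5-fold, and the largest of the 7 changes was the 1.46-fold lower level of Kat2b. The members' median log2 difference was -0.12, against 0.00 over all genes. Without TMM scaling 4 members were called, 1 higher and 3 lower. All genes then split into 1196 higher and 558 lower, against 1183 and 1132. Without the 4 libraries named above 6 members were called, 1 higher and 5 lower. The count was 3 without WT acetate 1, 4 without WT acetate 2, 4 without WT untreated 2 and 10 without WT acetate 3, the highest over the single libraries left out.

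With acetate in both genotypes, no member was called between KO acetate and WT acetate, beside 1.00% of all genes. At an unadjusted p below 0.05 the edgeR test held 9 of the 37 members and 2762 of all genes, and DESeq2 called 3 members, Hdac5, Hat1 and Hdac3. The lowest adjusted p-values from edgeR were those of Hdac5 (log2 -0.28, SE 0.067, adjusted p = 0.0528), Hat1 (log2 -0.20, SE 0.052, adjusted p = 0.0626) and Hdac3 (log2 -0.24, SE 0.076, adjusted p = 0.105), all with a lower mean in KO acetate cells. From DESeq2 their adjusted p-values were 0.00553, 0.00625 and 0.0451 in the same order. With edgeR, leaving out the 4 libraries named above gave 1 call, Hdac5 (log2 -0.35, adjusted p = 0.0153), beside 535 of all genes. Over the 37 members the log2 differences ran between -0.28 and 0.27, with a median absolute difference of 0.07, against 0.13 over all genes.

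KO cells with acetate were also set against WT cells without it. Here 15 of 37 members were called (40.5%), 2 higher (Sirt3 and Hdac11) and 13 lower, beside 26.4% of all genes (12.9% higher and 13.5% lower). The lower ones were 4 writers (Kat2a, Kat2b, Ep300 and Hat1), 4 HDACs (Hdac3, Hdac4, Hdac5 and Hdac6), Sirt1, 3 corepressors (Ncor1, Sin3a and Rcor1) and Brd1. Apart from Hdac11, the largest was Kat2b, 1.44-fold lower. The calls of Ep300, Hat1, Hdac3, Ncor1, Sin3a, Rcor1 and Brd1 were lost without TMM scaling (log2 -0.22 to -0.14), and those of Ep300, Hdac3, Hdac11, Sirt3, Ncor1, Sin3a, Rcor1 and Brd1 without the 4 libraries with the high share of 1 identifier. Without TMM scaling 8 members were called, 2 higher and 6 lower, with all genes at 1911 higher and 1254 lower, against 1935 and 2019. Without those 4 libraries 9 were called, 1 higher and 8 lower. The 1 higher was Hdac8 (log2 0.28, adjusted p = 0.0493), and Kat7 was among the lower (log2 -0.28, adjusted p = 0.00611). Neither was called here with all 16 libraries in the main fit.

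The acetate effect differed between the genotypes, by the interaction term (the log2 change in KO cells with the log2 change in WT cells subtracted), for 5 of 37 members (13.5%), 3 higher and 2 lower, beside 11.9% of all genes (6.37% higher and 5.54% lower). These were Sirt1, Sirt2, Sirt5, Rcor1 and Brd2, and no writer and no HDAC was called. Only Brd2 was called when the 4 libraries named above were left out, and 3 members were called without KO untreated 3. Without TMM scaling 4 were called, 3 higher and 1 lower, since Sirt1 had an adjusted p of 0.0538, and all genes moved to 939 higher and 442 lower, against 955 and 830.

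**Figure D2:**
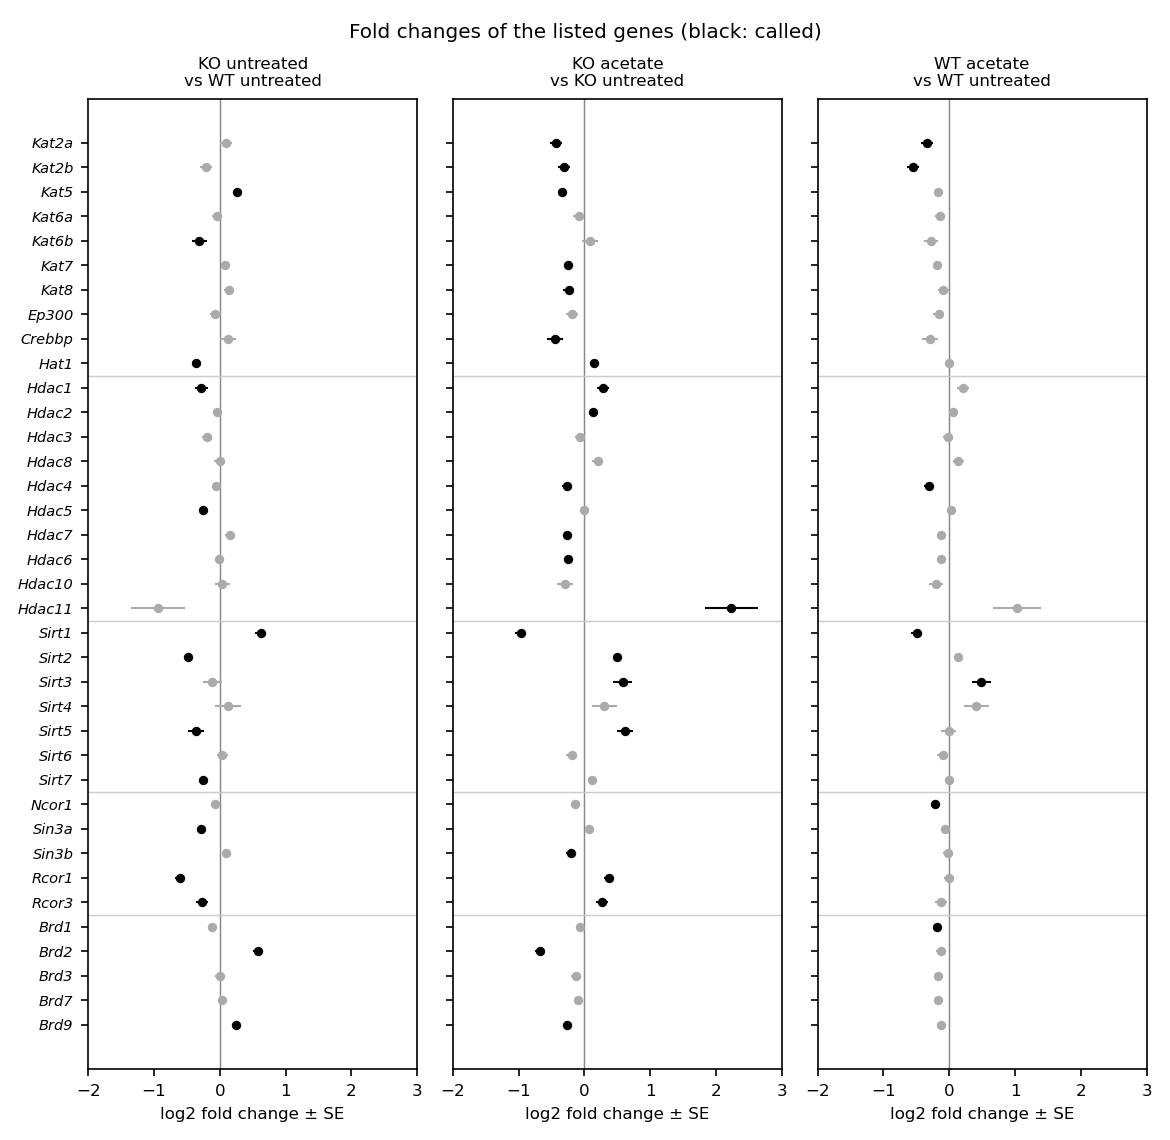
Each point is the log2 fold change of 1 listed gene with its standard error (SE), in KO untreated vs WT untreated, KO acetate vs KO untreated and WT acetate vs WT untreated; black points were called and grey points were not. Sirt1 lies at 0.62, -0.97 and -0.49 and Brd2 at 0.58, -0.67 and -0.13 in the 3 panels, and lines part the 5 classes.

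The promoters of 4 members that differed between untreated KO and WT cells are shown as examples. Sirt1, Brd2 and Kat5 were higher in KO cells and Hat1 was lower, and each holds a motif that was searched. Brd9 (higher) and Sirt7 (lower) also differed and hold such a motif, but are not shown. The 250 bases before a RefSeq start of each gene are given 5′ to 3′ on the gene's strand (GRCm38.p6), with the matched letters in capitals. Starts without a searched motif are not shown. Sirt1 lies at chr10:63339036-63339285 (minus strand), Brd2 at chr17:34122608-34122857 (minus), Kat5 at chr19:5610095-5610344 (minus) and Hat1 at chr2:71389010-71389259 (plus).
Sirt1: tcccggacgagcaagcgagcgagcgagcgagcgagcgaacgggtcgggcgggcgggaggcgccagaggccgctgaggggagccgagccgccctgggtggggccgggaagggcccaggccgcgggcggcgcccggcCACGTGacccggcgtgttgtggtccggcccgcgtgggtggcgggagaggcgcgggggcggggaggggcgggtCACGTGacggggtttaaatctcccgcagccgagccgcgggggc
Brd2: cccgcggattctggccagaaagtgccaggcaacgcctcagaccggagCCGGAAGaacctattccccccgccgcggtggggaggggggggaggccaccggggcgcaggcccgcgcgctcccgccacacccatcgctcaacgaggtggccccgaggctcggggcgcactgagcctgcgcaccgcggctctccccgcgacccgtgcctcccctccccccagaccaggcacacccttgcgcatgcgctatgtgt
Kat5: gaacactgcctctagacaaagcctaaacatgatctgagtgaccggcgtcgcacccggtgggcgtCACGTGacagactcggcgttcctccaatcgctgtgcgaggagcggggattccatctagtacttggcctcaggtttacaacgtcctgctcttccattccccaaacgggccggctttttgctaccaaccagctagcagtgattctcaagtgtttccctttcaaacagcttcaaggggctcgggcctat
Hat1: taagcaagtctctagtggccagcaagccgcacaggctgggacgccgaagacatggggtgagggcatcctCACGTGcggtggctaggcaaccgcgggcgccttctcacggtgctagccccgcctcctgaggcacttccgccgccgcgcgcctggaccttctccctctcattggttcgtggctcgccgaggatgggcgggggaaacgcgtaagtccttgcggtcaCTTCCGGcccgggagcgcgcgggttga
The motifs were CACGTG (E-box), TGACGTCA (cyclic AMP response element), CCGGAAG (ETS core) and TGATGNAA (a composite element of ATF and C/EBP factors), searched on both strands. Sirt1 holds CACGTG at 109 and at 37 bases before the start, Kat5 at 180 and Hat1 at 175, counted from the motif's last base. CCGGAAG lies 196 bases before the start in Brd2, and its reverse complement, printed as CTTCCGG, lies 20 bases before it in Hat1. Over the 33 members with a promoter in the table, 3 hold CACGTG (9.09%), beside 6.86% of 27025 genes, and 7 hold CCGGAAG (21.2%), beside 7.83%: Hat1, Sirt3, Sirt6, Sirt7, Ncor1, Brd2 and Brd9. Neither of the other motifs was found in a member, beside 1.77% of genes for TGACGTCA and 3.91% for TGATGNAA. The 33 members have 47 starts in all, and a gene counts as holding a motif if any of its starts does. These are matches of letters and not binding sites. The 27025 genes were not limited to the 14985 tested here, so the shares compare unlike sets. Enrichment was not tested.

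Among the writers, acetate went with lower transcript of the GCN5 family in both genotypes, while Kat5 was higher and Hat1 lower in untreated KO cells. Kat2a (GCN5) and Kat2b (PCAF) are the catalytic subunits of SAGA- and ATAC-type coactivator complexes. Kat2a was at 40.1, 47.8, 50.2 and 47.3 CPM in KO acetate libraries and 41.8, 46.0, 53.9 and 44.4 CPM in WT acetate libraries. In KO untreated libraries it was at 56.1, 59.6, 62.5 and 70.6 CPM, against 63.7, 60.7, 57.8 and 51.8 CPM in WT untreated libraries. KO acetate lay wholly below both untreated groups, whereas WT acetate overlapped WT untreated through 1 high library, WT acetate 3. The log2 change with acetate was -0.43 (SE 0.092, adjusted p = 9.56e-04) in KO cells and -0.33 (SE 0.091, adjusted p = 0.0193) in WT cells. The WT call was lost without WT acetate 1, WT acetate 4, WT untreated 1 or WT untreated 2 (log2 -0.31 to -0.28), without TMM scaling (-0.28, adjusted p = 0.0549) and without the 4 high-share libraries (-0.30, adjusted p = 0.0636).

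Kat2b was at 18.5, 15.3, 19.1 and 18.8 CPM in KO acetate and 17.6, 15.8, 19.9 and 17.2 CPM in WT acetate libraries. Untreated, it was at 25.6, 19.9, 23.0 and 20.7 CPM in KO and 27.3, 24.0, 25.6 and 26.2 CPM in WT libraries. Both acetate groups lay below WT untreated without overlap, and KO acetate below KO untreated. The log2 change with acetate was -0.55 in WT cells (SE 0.094, adjusted p = 6.68e-04) and -0.31 in KO cells (SE 0.094, adjusted p = 0.0118), and the interaction was not called (log2 0.24, SE 0.13, adjusted p = 0.271). In KO cells the call was lost without TMM scaling (-0.20, adjusted p = 0.123) and without the 4 libraries with the high share (-0.22, adjusted p = 0.106).

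Kat5 (TIP60), the catalytic subunit of the NuA4 complex, was at 42.0, 43.5, 37.3 and 45.4 CPM in KO acetate and 41.1, 41.3, 37.6 and 36.4 CPM in WT acetate libraries. KO untreated libraries held 52.9, 52.9, 51.5 and 55.0 CPM, against 43.5, 45.1, 44.2 and 42.7 CPM in WT untreated libraries. The 4 KO untreated values exceeded all 12 others. The difference from WT untreated was log2 0.27 (SE 0.063, adjusted p = 0.00223), and the change with acetate in KO cells was -0.34 (SE 0.063, adjusted p = 2.73e-04). In WT cells the acetate difference was -0.17 and not called (adjusted p = 0.0821), although those 2 groups did not overlap.

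Hat1, which acetylates newly made histone H4, went the other way. It was at 131, 135, 128 and 145 CPM in KO acetate and 148, 150, 163 and 159 CPM in WT acetate libraries. Without acetate it was at 120, 117, 123 and 127 CPM in KO libraries, against 156, 158, 152 and 157 CPM in WT libraries. Every KO library, treated or not, lay below every WT library. The untreated difference was log2 -0.36 (SE 0.052, adjusted p = 3.92e-05), and KO acetate stood -0.21 from WT untreated (SE 0.052, adjusted p = 0.00631). With acetate Hat1 was 0.15 higher in KO cells (SE 0.052, adjusted p = 0.0261). That call was lost without any 1 of KO acetate 2, KO acetate 4, KO untreated 1, KO untreated 2, KO untreated 3 or WT untreated 1 (0.11 to 0.14). It was also lost without the 4 high-share libraries (0.10, adjusted p = 0.339).

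Of the coactivator acetyltransferases, Crebbp (CBP) was lower with acetate in KO cells, and Ep300 (p300) differed less clearly. Crebbp averaged 39.5 ± 4.24 CPM in KO acetate, 40.4 ± 5.65 in WT acetate, 54.1 ± 3.93 in KO untreated and 49.4 ± 8.38 in WT untreated libraries. It fell with acetate in KO cells without overlap of the libraries (log2 -0.45, SE 0.12, adjusted p = 0.00473), a call kept in all 23 alternatives. In WT cells the value was -0.29 (SE 0.12, adjusted p = 0.108). Ep300 averaged 85.0 ± 4.48, 91.2 ± 9.34, 97.1 ± 8.80 and 102 ± 11.1 CPM in the same order of groups. With all 16 libraries its only call was between KO acetate and WT untreated (log2 -0.26, adjusted p = 0.0306), with overlapping libraries. That call was lost without any 1 of KO acetate 1, 2 or 4 or WT untreated 1, 2 or 3 (-0.27 to -0.20). Without the 4 high-share libraries Ep300 was called lower with acetate in KO cells (-0.28, adjusted p = 0.0384). The MYST-family writers are Kat5, Kat6a, Kat6b, Kat7 and Kat8. Of these, Kat7 (HBO1) and Kat8 (MOF) fell with acetate in KO cells, with log2 changes of -0.25 (adjusted p = 0.00527) and -0.24 (adjusted p = 0.0217). The libraries overlapped for both, and both calls were lost without TMM scaling (-0.15 and -0.14). Kat8 also lost its call without KO acetate 3 or KO acetate 4 (-0.20 to -0.18). Kat6b was lower in KO untreated cells, at 25.0 ± 1.74 CPM against 31.0 ± 1.62 CPM in WT untreated cells (log2 -0.31, adjusted p = 0.0409). That call was lost without any 1 of KO untreated 1, 3 or 4 or WT untreated 1, 2 or 4 (-0.32 to -0.28). Kat6a averaged 124 CPM in both acetate groups, 132 CPM in KO untreated and 136 CPM in WT untreated libraries.

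**Figure D3:**
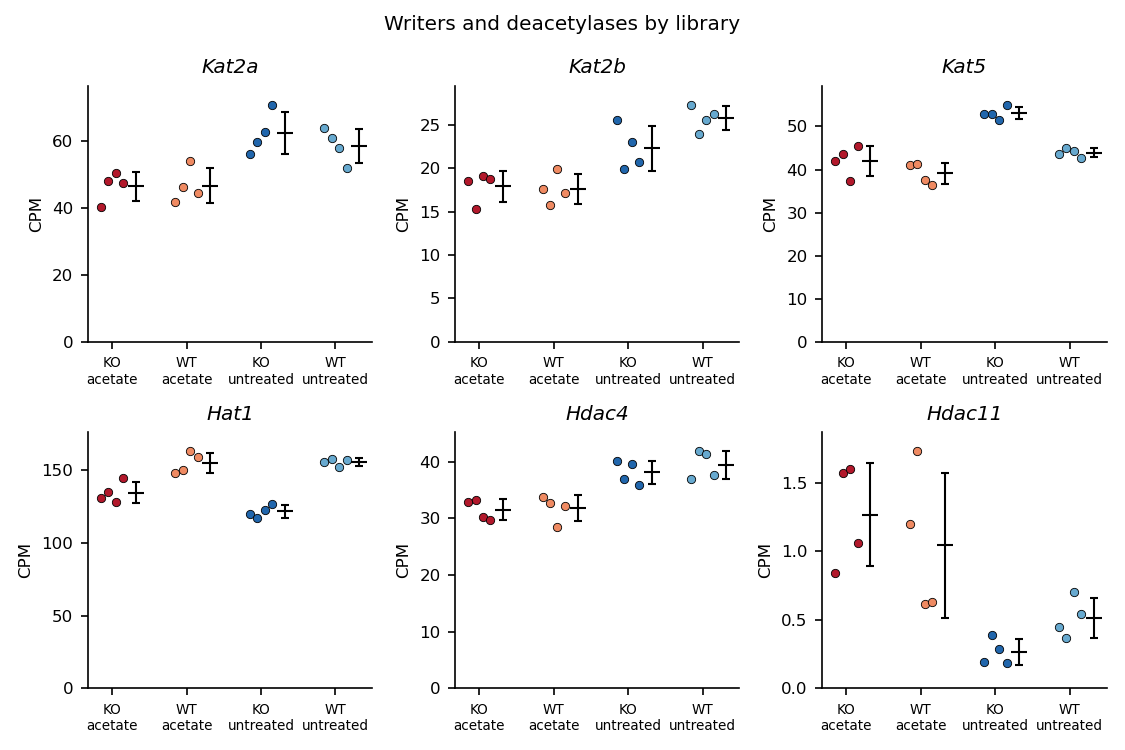
Each dot is the CPM of 1 library, with the mean and SD of its 4 libraries beside it, for 4 writers and 2 HDACs, on linear axes that start at 0. Hat1 lies lower in both KO groups, Kat5 is highest in KO untreated (51.5 to 55.0 CPM), and Hdac11 stays below 2 CPM throughout.

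The class I HDACs, the nuclear enzymes of most corepressor complexes, differed by small amounts. Hdac1 averaged 280 ± 26.5 CPM in KO acetate, 323 ± 37.9 in WT acetate, 230 ± 28.8 in KO untreated and 281 ± 19.2 in WT untreated libraries. It was lower in KO untreated than in WT untreated cells (log2 -0.28, SE 0.095, adjusted p = 0.0251) and higher with acetate in KO cells (0.28, SE 0.095, adjusted p = 0.0210), with overlapping libraries in both. The first call was lost without KO untreated 2, KO untreated 3 or WT untreated 1 (-0.26 to -0.22), the second without KO acetate 3, KO acetate 4, KO untreated 2 or KO untreated 3 (0.21 to 0.27), and both without the 4 high-share libraries (-0.17 and 0.25). Hdac2 rose with acetate in KO cells by log2 0.13 (adjusted p = 0.0304), at 184 ± 8.05 CPM against 168 ± 4.82 CPM, and lost the call without any 1 of KO acetate 1 or 4 or KO untreated 1, 3 or 4 (0.11 to 0.13). Hdac3, the enzyme carried by Ncor1, averaged 75.8 ± 8.57 CPM in KO acetate, 89.7 ± 7.51 in WT acetate, 79.6 ± 5.01 in KO untreated and 91.0 ± 2.30 in WT untreated libraries. Its difference between KO untreated and WT untreated missed the threshold (log2 -0.19, SE 0.076, adjusted p = 0.0530), though those libraries did not overlap and DESeq2 gave an adjusted p of 0.0451. KO acetate was lower than WT untreated (-0.26, adjusted p = 0.0153), without the call when KO acetate 1 was left out (-0.21). Hdac8 ranged between 9.85 and 13.4 CPM over all 16 libraries. It was called only in some alternatives, such as higher with acetate in KO cells without the 4 high-share libraries (log2 0.3, adjusted p = 0.0414).

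Of the class IIa HDACs, which move between nucleus and cytoplasm, Hdac4 was the one lower with acetate in both genotypes. It was at 32.9, 33.3, 30.2 and 29.7 CPM in KO acetate and 33.7, 32.7, 28.5 and 32.2 CPM in WT acetate libraries. The untreated libraries held 40.2, 36.9, 39.5 and 35.9 CPM in KO cells, against 36.9, 41.8, 41.4 and 37.6 CPM in WT cells. All 8 acetate libraries lay below all 8 untreated ones. The log2 change was -0.27 in KO cells (SE 0.069, adjusted p = 0.00338) and -0.31 in WT cells (SE 0.069, adjusted p = 0.00473), the first lost without TMM scaling (-0.17, adjusted p = 0.098). Hdac5 instead followed genotype. It was at 31.7, 38.9, 31.6 and 33.3 CPM in KO acetate and 42.3, 41.8, 39.2 and 40.8 CPM in WT acetate libraries, and at 34.3, 33.8, 31.2 and 35.8 CPM in KO untreated against 41.6, 39.1, 40.0 and 39.7 CPM in WT untreated libraries. Each KO library lay below each WT library, with log2 -0.25 without acetate (SE 0.067, adjusted p = 0.00786) and -0.28 with it (SE 0.067, adjusted p = 0.0528, not called). Hdac7 averaged 235 ± 18.1 CPM in KO acetate and 283 ± 12.5 CPM in KO untreated libraries (log2 -0.27, adjusted p = 0.00176). The call was lost without TMM scaling (-0.17, adjusted p = 0.0577). Slc48a1, whose exons overlap those of Hdac7 on the opposite strand, rose with acetate in KO cells (log2 0.45, adjusted p = 1.66e-04).

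Hdac6, a class IIb deacetylase of tubulin, was at 20.1, 20.9, 20.0 and 19.1 CPM in KO acetate and 22.0, 21.8, 20.9 and 23.1 CPM in WT acetate libraries. Untreated libraries stood at 24.9, 22.9, 23.4 and 24.2 CPM in KO, against 24.5, 24.2, 24.6 and 22.7 CPM in WT. KO acetate lay below both untreated groups without overlap. In KO cells with acetate it fell, with a log2 change of -0.25 (SE 0.061, adjusted p = 0.00236), which was lost without TMM scaling (-0.15, adjusted p = 0.11). Hdac10, the other class IIb member, averaged 13.2 ± 1.63 CPM in KO acetate and 16.1 ± 0.241 CPM in KO untreated libraries (log2 -0.29, adjusted p = 0.0519, not called). Hdac11, the sole class IV enzyme, had few counts. It was at 0.842, 1.57, 1.60 and 1.06 CPM in KO acetate and 1.20, 1.73, 0.619 and 0.634 CPM in WT acetate libraries, and at 0.194, 0.389, 0.288 and 0.184 CPM in KO untreated against 0.447, 0.364, 0.705 and 0.541 CPM in WT untreated libraries. These rest on 25 to 45 estimated counts per KO acetate library and 5 to 12 per KO untreated library, with no overlap between the 2 groups. The fitted rise with acetate in KO cells was log2 2.23 (SE 0.40, adjusted p = 1.76e-04), while in WT cells the value was 1.03 (SE 0.37, adjusted p = 0.0684, not called) with overlapping libraries. The call against WT untreated (1.29, adjusted p = 0.0152) was lost without WT untreated 2 (1.15).

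The sirtuins did not move together: Sirt1 was high in untreated KO cells, Sirt2, Sirt5 and Sirt7 were low there, and Sirt3 was higher with acetate in both genotypes. Sirt1, the nuclear sirtuin, was at 30.5, 25.2, 29.9 and 28.9 CPM in KO acetate and 26.5, 23.3, 29.5 and 24.7 CPM in WT acetate libraries. Without acetate it was at 59.3, 52.8, 58.6 and 53.5 CPM in KO libraries, against 38.2, 31.9, 38.2 and 37.4 CPM in WT libraries. Every KO untreated library exceeded every WT untreated one, and every acetate library of either genotype lay below all untreated ones. KO untreated cells stood log2 0.62 above WT untreated cells (SE 0.082, adjusted p = 1.54e-05). The change with acetate was -0.97 in KO cells (SE 0.083, adjusted p = 4.75e-08) and -0.49 in WT cells (SE 0.083, adjusted p = 6.53e-04), and the fall was larger in KO cells, with an interaction of -0.48 (SE 0.12, adjusted p = 0.0119). That interaction was not called without TMM scaling (-0.42, adjusted p = 0.0538) or without the 4 high-share libraries (-0.45, adjusted p = 0.0589). KO acetate was also lower than WT untreated (-0.35, SE 0.083, adjusted p = 0.00496).

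Sirt2, a mainly cytosolic deacetylase, had the reverse pattern in KO cells. It was at 108, 114, 112 and 109 CPM in KO acetate and 116, 128, 123 and 116 CPM in WT acetate libraries. In KO untreated libraries it was at 77.4, 73.8, 76.3 and 88.1 CPM, against 106, 111, 118 and 105 CPM in WT untreated libraries. The KO untreated group lay below the 12 other libraries. The log2 difference from WT untreated was -0.48 (SE 0.060, adjusted p = 8.96e-06). With acetate Sirt2 was 0.49 higher in KO cells (SE 0.060, adjusted p = 3.18e-06), against 0.13 in WT cells (not called, adjusted p = 0.143). The interaction was 0.36 (SE 0.085, adjusted p = 0.0105) and was not called without the 4 high-share libraries (0.30, adjusted p = 0.0951). Exons of Sirt2 overlap those of Nfkbib on the opposite strand in GENCODE M21, and Nfkbib moved the same way, at log2 -0.23 (adjusted p = 0.0457) in KO untreated against WT untreated cells and at 0.46 (adjusted p = 2.98e-04) with acetate in KO cells. The library kit marks strand, but the labels do not say whether the counting used it.

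Of the 3 mitochondrial sirtuins, Sirt3 and Sirt5 were called and Sirt4 was not. Sirt3, the main mitochondrial deacetylase, was at 5.66, 7.10, 6.13 and 6.99 CPM in KO acetate and 6.60, 7.33, 6.22 and 5.94 CPM in WT acetate libraries. Untreated, it was at 4.90, 5.12, 3.42 and 3.86 CPM in KO, against 4.23, 4.30, 5.03 and 5.07 CPM in WT libraries. The 8 acetate libraries lay above the 8 untreated ones. Its change with acetate was log2 0.58 in KO cells (SE 0.14, adjusted p = 0.00255) and 0.49 in WT cells (SE 0.14, adjusted p = 0.0236), the WT call being lost without WT acetate 1, WT acetate 2, WT untreated 1 or WT untreated 2 (0.43 to 0.48). Its call in KO acetate against WT untreated cells (0.47, adjusted p = 0.0180) was lost without KO acetate 2, WT untreated 1 or WT untreated 2 (0.42 to 0.44). Sirt3 shares exon bases with Psmd13 on the opposite strand, which rose by 0.28 with acetate in KO cells (adjusted p = 0.00103) and was not called in WT cells (0.11, adjusted p = 0.243). Ric8a, which also overlaps it on the opposite strand, was called in neither (0.02, adjusted p = 0.837, in KO cells and -0.05, adjusted p = 0.649, in WT cells).

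Sirt5, which removes succinyl and malonyl groups, was at 10.2, 9.64, 9.01 and 8.13 CPM in KO acetate and 7.90, 9.15, 6.81 and 6.97 CPM in WT acetate libraries. KO untreated libraries held 7.03, 6.15, 5.72 and 5.29 CPM, against 8.32, 7.73, 8.05 and 6.96 CPM in WT untreated libraries. KO acetate lay above KO untreated without overlap, while KO untreated and WT untreated overlapped slightly. With acetate Sirt5 was log2 0.61 higher in KO cells (SE 0.12, adjusted p = 4.55e-04), against a change of -0.01 in WT cells (SE 0.12, adjusted p = 0.973). The interaction of 0.62 (SE 0.17, adjusted p = 0.0231) was lost without KO acetate 1, WT acetate 4 or KO untreated 3 (0.57 to 0.59) and without the 4 high-share libraries (0.71, adjusted p = 0.0504). Its lower level in KO untreated cells (-0.36, adjusted p = 0.0264) was lost without KO untreated 3, KO untreated 4, WT untreated 1 or WT untreated 3 (-0.35 to -0.30).

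Sirt7, a nucleolar sirtuin, was at 41.0, 43.9, 43.1 and 45.8 CPM in KO acetate and 47.7, 50.2, 46.1 and 45.2 CPM in WT acetate libraries. The KO untreated values of 40.2, 40.4, 39.8 and 39.7 CPM were close to one another and below every other library, against 48.7, 48.4, 47.4 and 45.6 CPM in WT untreated libraries. The untreated difference was log2 -0.25 (SE 0.053, adjusted p = 0.00127). Sirt7 shares exon bases with Mafg on the same strand, and Mafg was lower there too, at -0.21 (adjusted p = 0.0320). Sirt4, another mitochondrial sirtuin, and the chromatin-bound Sirt6 were not called. Sirt4 averaged 5.68 ± 0.550 CPM in KO acetate, 5.60 ± 1.25 in WT acetate, 4.62 ± 0.637 in KO untreated and 4.22 ± 1.15 in WT untreated libraries, and Sirt6 ranged between 19.6 and 25.1 CPM over all libraries.

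**Figure D4:**
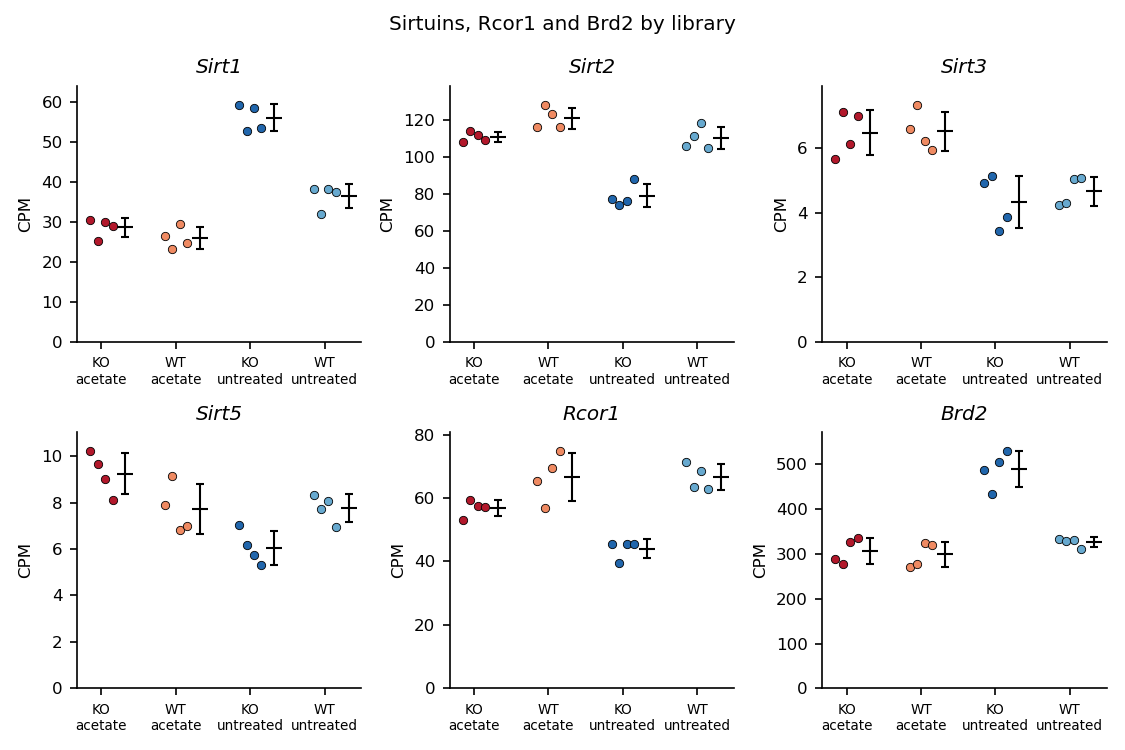
Each dot is the CPM of 1 library, with the mean and SD of its 4 libraries beside it, for 4 sirtuins, the corepressor Rcor1 and the bromodomain protein Brd2, on linear axes that start at 0. KO untreated libraries are highest for Sirt1 and Brd2 and lowest for Sirt2 and Rcor1, and Sirt3 is higher in both acetate groups.

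Among the corepressors, Rcor1, Rcor3 and Sin3a were lower in untreated KO cells, and Rcor1 and Rcor3 rose there with acetate. Rcor1 (CoREST) joins HDAC1 or HDAC2 to the histone demethylase LSD1. It was at 53.2, 59.3, 57.4 and 57.2 CPM in KO acetate and 65.5, 57.0, 69.6 and 74.7 CPM in WT acetate libraries. KO untreated libraries held 45.5, 39.6, 45.4 and 45.5 CPM, against 71.5, 63.5, 68.6 and 63.0 CPM in WT untreated libraries. KO untreated lay below the 12 other libraries, and KO acetate lay between KO untreated and WT untreated without overlap with either. The untreated difference was log2 -0.60 (SE 0.076, adjusted p = 1.07e-05). With acetate Rcor1 was 0.37 higher in KO cells (SE 0.077, adjusted p = 7.07e-04), and KO acetate stood at -0.23 from WT untreated (SE 0.076, adjusted p = 0.0306). In WT cells the acetate difference was 0.00 (SE 0.076, adjusted p = 0.999). The interaction (0.37, SE 0.11, adjusted p = 0.0324) was lost without any 1 of KO acetate 2 or 3, WT acetate 1 or 2, KO untreated 2 or 3, or WT untreated 1 or 3 (0.30 to 0.37) and without the 4 high-share libraries (0.27, adjusted p = 0.230). The call against WT untreated was lost without KO acetate 1, KO acetate 3, WT untreated 1 or WT untreated 3 (-0.24 to -0.20). Rcor1 shares exon bases with Gm48632 on the same strand. Gm48632 was higher in KO untreated than in WT untreated cells (log2 1.27, SE 0.44, adjusted p = 0.0290). It was not called with acetate in KO cells (-0.19, adjusted p = 0.734). The part of shared reads in the Rcor1 values was not tested.

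Sin3a, a scaffold for HDAC1 and HDAC2, was at 94.0, 92.5, 93.5 and 79.6 CPM in KO acetate and 99.2, 95.7, 102 and 95.8 CPM in WT acetate libraries. Untreated libraries stood at 85.8, 85.4, 84.9 and 85.8 CPM in KO, against 111, 99.3, 103 and 101 CPM in WT. The 4 KO untreated libraries agreed within 1 CPM and lay below every WT library. The untreated difference was log2 -0.28 (SE 0.057, adjusted p = 9.78e-04). Its paralog Sin3b averaged 75.4 ± 7.45 CPM in KO acetate and 87.0 ± 6.49 CPM in KO untreated libraries, a log2 change of -0.21 (adjusted p = 0.0264) with overlapping libraries, and lost this call without TMM scaling (-0.11) and without KO acetate 1, KO acetate 3, KO untreated 2 or KO untreated 4 (-0.19 to -0.16). Rcor3 averaged 11.2 ± 1.11 CPM in KO acetate, 10.3 ± 0.696 in WT acetate, 9.31 ± 0.575 in KO untreated and 11.2 ± 0.513 in WT untreated libraries. Its call in untreated cells (log2 -0.27, adjusted p = 0.0283) was lost without KO untreated 1, KO untreated 3, WT untreated 1 or WT untreated 3 (-0.26 to -0.23). Its call with acetate in KO cells (0.27, adjusted p = 0.0230), with overlapping libraries, was lost without KO acetate 1, KO acetate 3 or KO untreated 3 (0.21 to 0.26). Ncor1, the scaffold that activates HDAC3, followed acetate instead. It was at 244, 227, 239 and 204 CPM in KO acetate and 223, 214, 239 and 235 CPM in WT acetate libraries, and at 260, 245, 254 and 254 CPM in KO untreated against 275, 272, 260 and 255 CPM in WT untreated libraries. Each acetate group lay below its own untreated group, but the change was called in WT cells alone, at -0.22 (adjusted p = 0.0166) against -0.15 in KO cells (adjusted p = 0.0530). The interaction was 0.07 (adjusted p = 0.623, not called), and the WT call was lost without WT acetate 1, WT acetate 2 or WT untreated 2 (-0.21 to -0.19) and without TMM scaling (-0.18, adjusted p = 0.123) or the 4 high-share libraries (-0.22, adjusted p = 0.0545).

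Of the bromodomain proteins, Brd2 and Brd9 were higher in untreated KO cells and lower there with acetate. Brd2, a BET protein that binds acetylated histone H4, was at 289, 277, 326 and 335 CPM in KO acetate and 272, 278, 325 and 321 CPM in WT acetate libraries. KO untreated libraries held 488, 435, 505 and 529 CPM, against 334, 330, 331 and 311 CPM in WT untreated libraries. The lowest KO untreated library, at 435 CPM, lay above all 12 others, the highest of which was at 335 CPM. The untreated difference was log2 0.58 (SE 0.078, adjusted p = 1.85e-05). With acetate in KO cells Brd2 changed by -0.67 (SE 0.078, adjusted p = 1.70e-06), against -0.13 in WT cells (SE 0.078, adjusted p = 0.313), and this difference of -0.55 was called (SE 0.11, adjusted p = 0.00391). This interaction was called in every alternative tried, each single library left out included. H2-DMa, whose exons overlap those of Brd2 on the opposite strand, was at 0.02 (adjusted p = 0.877) in KO untreated against WT untreated cells and at 0.16 (adjusted p = 0.197) with acetate in KO cells.

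Brd9, the bromodomain subunit of the non-canonical BAF complex, was at 48.4, 47.3, 52.1 and 52.3 CPM in KO acetate and 44.7, 47.2, 48.3 and 45.2 CPM in WT acetate libraries. Without acetate it was at 59.3, 57.4, 61.6 and 60.7 CPM in KO, against 49.1, 49.7, 48.6 and 54.2 CPM in WT libraries. KO untreated lay above the 12 others. The difference was log2 0.24 (SE 0.055, adjusted p = 0.00212) from WT untreated and -0.26 with acetate (SE 0.056, adjusted p = 0.00102), and both calls were lost without TMM scaling (0.19, adjusted p = 0.0702, and -0.15, adjusted p = 0.128). Brd1 (BRPF2), a scaffold of Kat7 complexes, was at 71.7, 66.7, 72.8 and 68.2 CPM in KO acetate and 68.6, 66.3, 72.2 and 72.8 CPM in WT acetate libraries, and at 75.1, 70.6, 74.3 and 73.9 CPM in KO untreated against 80.4, 77.4, 79.2 and 81.3 CPM in WT untreated libraries. WT untreated lay above the 12 others. The WT change with acetate was log2 -0.19 (SE 0.051, adjusted p = 0.0174), lost without WT acetate 1 or WT acetate 2 (-0.18 to -0.16) and without TMM scaling (-0.14, adjusted p = 0.222). The BET protein Brd3 and the PBAF subunit Brd7 were called in no comparison, with log2 differences between -0.17 and 0.12.

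**Figure D5:**
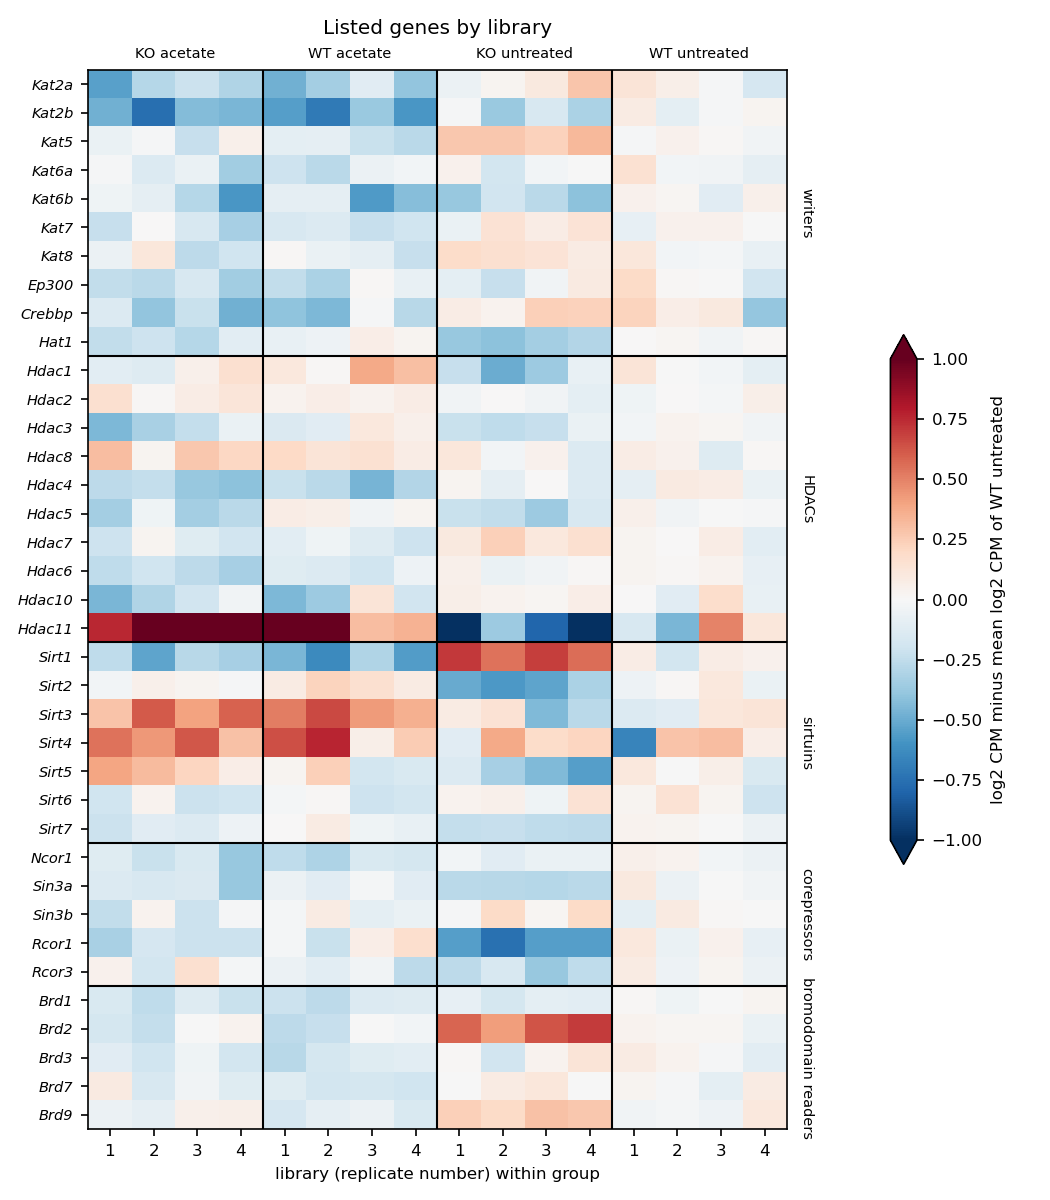
Each cell is the log2 CPM of 1 listed gene in 1 library minus that gene's mean log2 CPM over the WT untreated libraries (red higher, blue lower; values past the ends of the scale, as for Hdac11, take the end colour). The KO untreated columns stand apart for Sirt1, Brd2, Kat5 and Brd9 (red) and for Sirt2, Rcor1 and Hat1 (blue), while Hat1 is also low in KO acetate.

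Partners of these enzymes were counted from 3 lists of genes outside the 37. Of 41 tested partners of the writers, 16 were higher and 4 lower in KO untreated than in WT untreated cells, and with acetate in KO cells 3 rose and 22 fell. These are 48.8% called, beside 36.6% of all genes, and 61.0%, beside 43.7%. Their median log2 difference was 0.13 and -0.21 in these comparisons, against 0.01 and -0.01 over all genes. Without TMM scaling the counts were 13 higher and 4 lower, and 6 higher and 17 lower. Without the 4 high-share libraries they were 13 higher and 1 lower, and 2 higher and 19 lower. Epc1, a scaffold of the NuA4 complex of Kat5, averaged 22.6 ± 2.18 CPM in KO acetate, 19.8 ± 2.93 in WT acetate, 63.1 ± 3.90 in KO untreated and 29.4 ± 2.24 in WT untreated libraries. It was log2 1.10 higher in KO untreated than in WT untreated cells (SE 0.094, adjusted p = 1.64e-07) and -1.48 with acetate in KO cells (SE 0.095, adjusted p = 2.07e-09). Ing3, also of NuA4, was at 0.72 (adjusted p = 2.44e-07) and -0.83 (adjusted p = 1.55e-08), and Sgf29, a SAGA and ATAC subunit, at 0.72 (adjusted p = 3.09e-07) and -0.94 (adjusted p = 4.86e-09). Brpf3, a scaffold of Kat7, fell with acetate in KO cells (log2 -1.54, SE 0.11, adjusted p = 3.85e-09), at 10.5 ± 0.859 CPM against 30.5 ± 1.01 CPM.

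Of 32 tested partners of the HDACs, 4 were higher and 10 lower in KO untreated than in WT untreated cells, with a median of -0.16, and with acetate in KO cells 10 rose and 6 fell, with a median of 0.08. The shares called were 43.8%, beside 36.6% of all genes, and 50%, beside 43.7%. Without TMM scaling these were 1 higher and 16 lower, and 16 higher and 3 lower. Without the 4 high-share libraries 2 were higher and 8 lower, and with acetate in KO cells 5 rose and 5 fell. Zmym2, a partner of the CoREST complex, was at log2 -0.46 (adjusted p = 3.05e-05) and 0.51 (adjusted p = 4.71e-06). Sap130 of the SIN3 complex and Mbd2 of the NuRD complex were lower in KO untreated cells, at -0.46 (adjusted p = 4.01e-05) and -0.49 (adjusted p = 1.87e-04). Mbd3, also of NuRD, fell with acetate in KO cells, at log2 -0.66 (adjusted p = 1.38e-05).

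Of 31 tested further readers of acetyl-lysine, 2 were higher and 8 lower in KO untreated than in WT untreated cells (median -0.01), and with acetate in KO cells 8 rose and 11 fell (median 0.03), or 11 and 7 without TMM scaling. The shares called were 32.3%, beside 36.6% of all genes, and 61.3%, beside 43.7%. Without the 4 high-share libraries 3 were higher and 4 lower in untreated KO cells. With acetate in KO cells 7 then rose and 10 fell. Trim24, a bromodomain protein, was at log2 0.39 (adjusted p = 6.70e-05) and -0.89 (adjusted p = 3.68e-09). Baz2a, of the nucleolar remodelling complex, was at -0.41 (adjusted p = 2.74e-05) and 0.54 (adjusted p = 5.19e-07). Dpf2, a BAF subunit, was higher in KO untreated cells, at 0.36 (adjusted p = 2.50e-04), and the nuclear body protein Sp100 fell with acetate in KO cells, at log2 -0.57 (adjusted p = 8.93e-07).

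The listed genes that make or use acetyl-CoA were fewer, and 9 of 10 were tested. In KO untreated against WT untreated cells 1 was higher and 2 were lower, and with acetate in KO cells 2 rose and 2 fell. At 33.3% and 44.4% these shares were near the 36.6% and 43.7% of all genes. Without the 4 high-share libraries the counts were 1 higher and 0 lower, and 1 higher and 2 lower. Acss1, the mitochondrial acetate-activating enzyme, averaged 8.59 ± 1.22 CPM in KO acetate, 8.72 ± 1.31 in WT acetate, 3.74 ± 1.11 in KO untreated and 6.26 ± 0.457 in WT untreated libraries. It was lower in KO untreated than in WT untreated cells, at log2 -0.74 (SE 0.18, adjusted p = 0.00380), and rose with acetate in KO cells by 1.19 (SE 0.18, adjusted p = 3.18e-05). Acaca, which uses acetyl-CoA for fatty acid synthesis, was at 0.50 (adjusted p = 4.90e-05) and -0.36 (adjusted p = 5.33e-04). Citrate synthase (Cs) was lower in KO untreated cells, at -0.25 (adjusted p = 0.0122), and Acat2, a thiolase that uses acetyl-CoA, fell with acetate in KO cells, at log2 -0.51 (adjusted p = 4.79e-04). Acss2, the nuclear and cytosolic synthetase, averaged 20.5 ± 3.07, 19.2 ± 6.32, 24.8 ± 5.53 and 20.5 ± 5.74 CPM in KO acetate, WT acetate, KO untreated and WT untreated libraries and was called in no comparison, with an SE of 0.25 on each log2 difference between groups. Acly averaged 614 ± 58.9, 505 ± 69.2, 682 ± 7.82 and 635 ± 58.3 CPM in the same order and was called only as lower with acetate in WT cells (log2 -0.33, adjusted p = 0.0200).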

How the data were processed

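Poly(A) RNA of 16 Th17 cultures was sequenced from stranded libraries, per the labels' protocols. The authors deposited 1 table of estimated counts per gene, which are whole numbers, and Salmon, DESeq and DESeq2 are named without versions in the submitters' processing notes; the build, annotation and rounding were not given in the sources used here. All 15571 deposited genes had 10 or more counts in 3 or more libraries, and of their identifiers 15221 were matched to a symbol and 350 were not. From these expected counts, 1 model of the 4 groups was fitted over all 16 libraries with edgeR 4.0.16 in R 4.3.3 (TMM scaling, filterByExpr, robust quasi-likelihood test), leaving 14985 genes over which p-values were adjusted by Benjamini-Hochberg. The SE of a log2 difference is its size divided by the root of the F statistic. The fit was tested on simulated data. Alternatives were DESeq2 1.42.0, relative log expression size factors, no scaling, no filter on low counts, a fit of only the groups compared, a replicate block, each library left out, and the 4 libraries left out in which 1 unnamed identifier took over 3% of counts. Genes overlapping in exons (GENCODE M21) share reads that the counting may have split, so Hdac7, Kat5, Ncor1, Rcor1, Rcor3, Sirt2, Sirt3, Sirt7 and Brd2 are uncertain to that extent.

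The members and lists were chosen with earlier results of these data known. Values in every library are given for members called in a comparison without overlap of its groups, at most the 8 with the smallest adjusted p in each. Of each list of other genes at most the 3 with the smallest adjusted p in either of the first 2 comparisons are named, with Pdha1, Acss2 and Acly. One result that this rule selects is not reported here. The depth of 24571177 to 33723470 counts limits the precision mainly of Hdac11. Promoter sequences are those of RefSeq (GRCm38.p6), with 33 of 37 members matched.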

Additional observations from a re-analysis of the deposited data

Results flagged for a closer look

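The effect of acetate differed between genotypes, by the interaction term, for 5 of the 37 genes (13.5%), beside 11.9% of all genes. For Sirt1 it was -0.48 on the log2 scale, with a change of -0.97 in KO cells and -0.49 in WT cells. For Brd2 it was -0.55, with -0.67 in KO cells and -0.13 in WT cells. Sirt2 had 0.36, with 0.49 in KO cells and 0.13 in WT cells, and Sirt5 had 0.62, with 0.61 in KO cells and -0.01 in WT cells. Rcor1 had 0.37, with 0.37 in KO cells and 0.00 in WT cells. Only the interaction of Brd2 was called without the 4 high-share libraries. Over 22 alternatives Rcor1 lost its call in 9, Sirt5 in 4, Sirt1 in 2, Sirt2 in 1 and Brd2 in 0.

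One library lay far from the other 3 of its group for 6 of the 148 gene and group combinations tested, where chance gives about 1 in 20. Kat2b was at 15.3 CPM in KO acetate 2, against 18.5 to 19.1 in the other KO acetate libraries, and Sirt6 was at 23.3 CPM in KO acetate 2, against 19.6 to 19.8. Sin3a was at 79.6 CPM in KO acetate 4, against 92.5 to 94.0. Hdac3 was at 87.1 CPM in KO untreated 4, against 76.2 to 78.0 in the other KO untreated libraries, and Rcor1 was at 39.6 CPM in KO untreated 2, against 45.4 to 45.5. Sirt1 was at 31.9 CPM in WT untreated 2, against 37.4 to 38.2 in the other WT untreated libraries. KO acetate 2 and KO untreated 2 were among the 4 libraries with a high share of 1 unnamed identifier, and the part of that share in these values was not tested.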

How the results depend on the processing

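No called difference of the 37 genes changed sign under any alternative. Counts of members called moved as follows. Without TMM scaling 4 were called in WT acetate against WT untreated and 8 in KO acetate against WT untreated (7 and 15 with it). Without the 4 high-share libraries 9 were called in KO acetate against WT untreated, 1 (Hdac5) in KO acetate against WT acetate and 1 (Brd2) by the interaction. Leaving out single libraries gave 10 to 15 in KO untreated against WT untreated, 18 to 23 in KO acetate against KO untreated, 3 to 10 in WT acetate against WT untreated, 0 to 2 in KO acetate against WT acetate, 12 to 16 in KO acetate against WT untreated and 3 to 6 by the interaction. Over all genes, leaving out single libraries gave 4491 to 5587, 5817 to 6652 and 1569 to 2370 calls in the first 3 comparisons. In the last 3 it gave 21 to 661, 2944 to 4097 and 1277 to 1999. Among the members, KO acetate against WT acetate gave 3 calls with DESeq2 and 3 with the replicate block (adjusted p of 0.0356 for Hdac5, 0.041 for Hat1 and 0.0498 for Hdac3). Over all genes, that comparison gave 150 calls, 78 without scaling, 826 with DESeq2, 16 from its 2 groups alone, 408 with the block, 535 without the 4 libraries and 21 to 661 without single libraries. Without the 4 libraries, KO untreated against WT untreated gave 3361 calls over all genes (5481 with them) and the interaction 1010 (1785 with them). The cause was not tested.

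The replicate numbers were not taken to pair the libraries, since deviations of the 24 same-numbered pairs correlated at -0.084 to 0.229 and only 9 exceeded 0.1. As a hint from the data, 10 of 16 libraries had their highest correlation with a same-numbered library (2 had their own number highest in each other group), and the same-numbered KO acetate and KO untreated pairs, at 0.0862 to 0.165, exceeded all other-numbered ones (0.0396 at most). The block gave 17, 25, 9, 3, 17 and 5 members in the order of comparisons used in the report. Over all genes it gave 5886, 6851, 2632, 408, 4401 and 2259, against 5481, 6550, 2315, 150, 3954 and 1785 without it. A fit of only the groups compared was not run for the interaction, which uses all 4. Depth limits Hdac11, at 5 to 60 counts per library.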
